A study of Homo sapiens with 20 samples.

Results

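The zinc finger genes of chromosome 19 whose symbol is ZNF and a number were examined in alveolar rhabdomyosarcoma cells in which KDM4 histone demethylases were inhibited or knocked down. A gene was a member when its probe set carried a chromosome 19 identifier and such a symbol, which gave 225 of the 17687 genes measured. Each member had 1 probe set, and all 225 lie on chromosome 19 as protein-coding genes in the gene table used. The rule used no measured value. The 223 numbered ZNF genes of other chromosomes and the 1031 other genes of chromosome 19 served for comparison.

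Most of these genes encode proteins with a row of C2H2 zinc fingers, which read DNA sequence, and many carry a KRAB domain at the other end. The KRAB domain binds TRIM28 (KAP1), which brings in the methyltransferase SETDB1, and SETDB1 places trimethyl marks on lysine 9 of histone H3 (H3K9me3), mainly at transposable elements. The genes arose by tandem duplication and stand in long runs on chromosome 19, whose gene bodies themselves carry H3K9me3. KDM4 enzymes remove methyl groups from lysine 9 and lysine 36 of histone H3.

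The study hybridised RNA of 20 cultures to Clariom S arrays, on which a value is the log2 signal of a probe set. Rh30 and Rh41 were both grown from alveolar rhabdomyosarcoma and carry the PAX3-FOXO1 fusion. The 8 groups were Rh30 with the KDM4 inhibitor QC6352 at 200 nM for 48 h (3 arrays) and Rh30 with its vehicle DMSO for 48 h (3), Rh41 with QC6352 at 200 nM for 48 h (3) and Rh41 with DMSO for 48 h (3), Rh30 with a hairpin RNA against KDM4B for 72 h (2) and Rh30 with a control hairpin for 72 h (2), and Rh30 with siRNA against KDM4C for 72 h (2) and Rh30 with a control siRNA for 72 h (2). No group held a rescue of a knocked-down gene, and each line stands for 1 tumour.

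For 10 Rh30 arrays the title gives one group and the submitters' sample name another. These are all the Rh30 arrays of the QC6352, DMSO, KDM4C siRNA and control siRNA groups, so the QC6352 and siRNA comparisons in Rh30 and both comparisons between the lines rest on them, whereas the hairpin arrays and the 6 Rh41 arrays have no conflict. Groups follow the titles, and the counts with groups by sample name stand beside each comparison. The KDM4C siRNA group (siKDM4C) joins 1 array whose title names an siRNA and 1, replicate 2, whose title names an shRNA against KDM4C and whose sample name reads QC6352 replicate 1. Replicate 2 stood apart from replicate 1 in the member values given below. Array medians over all genes were 6.70 to 6.73 in the 4 siRNA arrays, 6.92 to 6.96 in the other 10 Rh30 arrays and 7.20 to 7.23 in the 6 Rh41 arrays. By sample name the Rh30 QC6352 group would join arrays with medians of 6.70, 6.95 and 6.96. The rhabdomyosarcoma marker MYOG had 9.03 to 9.34 log2 in Rh30 arrays titled QC6352 and 11.31 to 11.82 in the other arrays with a conflict. The control siRNA group by sample name would join 11.82 and 9.06. Which labels are right was not tested. Of 12 rhabdomyosarcoma markers 8 to 12 per array lay above the 95th percentile of the background probe sets, against 0 of 5 blood, 0 to 1 of 5 endothelial, 1 to 2 of 6 epithelial and 1 to 2 of 5 fibroblast markers.

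KDM4B had 6.01 and 6.15 log2 in the hairpin arrays, against 6.74 and 7.30 in the control hairpin arrays, and fell (-0.94 ± 0.23 SE, limma adjusted p = 0.0120). KDM4C had 6.25 and 6.32 log2 in the siKDM4C arrays, against 6.48 and 6.54 with control siRNA. Both siRNA arrays lay below both controls, but the difference of -0.23 ± 0.19, with the spread pooled over all groups, did not pass the threshold (limma adjusted p = 0.651). All these values lay below the 95th percentile of the background probe sets. That limit was 7.63 to 7.94 in the hairpin and control hairpin arrays, and 6.94 to 7.38 in the siKDM4C and control siRNA arrays. Either fold change can therefore understate the knockdown.

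Many members gave low signals. Over all 20 arrays 43 of 225 members lay above the 95th percentile of the background probe sets in every array, a limit that 26.8% of all genes passed. In every array of the group the number was 76 in Rh30 with QC6352 and 57 in Rh30 with DMSO, where the share of all genes was 34.8% and 34.6%. It was 135 in Rh41 with QC6352 and 104 in Rh41 with DMSO (43.8% and 39.5% of all genes), 50 with the KDM4B hairpin and 58 with its control (34.1% and 34.7%), and 104 with KDM4C siRNA and 87 with its control (42.3% and 40% of all genes), so the share of all genes also differed in Rh41 and the siRNA groups. With the median of the background probe sets as the limit, 213 members passed in every array. All 225 entered every test, and a fold change of a member near background can understate the change of its transcript. Neighbouring members can be close in sequence, and the probes were not checked for binding to more than 1 of them.

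Promoters of the members are shown first because neighbouring members share sequence there. Most of those printed come from 2 runs of neighbours. The first, from ZNF653 to ZNF791, holds the 2 largest rises with QC6352 in Rh30, and the second, from ZNF101 to ZNF507, most falls with the hairpin. The rise was not particular to the first run (16 of 25 members higher), since the run from ZNF175 to ZNF331 had 22 of 35 higher. RefSeq promoter sequences (GRCh38.p14, 250 bases before to 50 after the start) were at hand for 197 of 225 members. Members were placed in runs by gene order, a run ending where more than 10 other protein-coding genes followed, and 10 runs of at least 5 members held 215 of the 225. The 150 bases before the start follow, on the strand of the gene, 5′ to 3′. Capitals mark matches on either strand to CCAATCAG, which holds the CCAAT box, to CCGGAAG, which holds the core of ETS factor sites, and to GGGCGG, the GC box. ZNF878 (chr19:12052962-12053111, minus strand), ZNF844 (chr19:12064581-12064730, plus), ZNF442 (chr19:12365684-12365833, minus) and ZNF443 (chr19:12441022-12441171, minus) stand in the run from ZNF653 to ZNF791 and rose with QC6352 in Rh30. Not all members that rose hold CCAATCAG there. The 150 bases of ZNF799, in the same run and not printed, held GGGCGG but not CCAATCAG. Those of ZNF613 and ZNF850, in other runs and not printed, held no match to any of these words.
ZNF878: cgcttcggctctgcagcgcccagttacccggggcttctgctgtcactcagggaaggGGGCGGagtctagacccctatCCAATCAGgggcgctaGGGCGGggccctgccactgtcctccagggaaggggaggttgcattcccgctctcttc
ZNF844: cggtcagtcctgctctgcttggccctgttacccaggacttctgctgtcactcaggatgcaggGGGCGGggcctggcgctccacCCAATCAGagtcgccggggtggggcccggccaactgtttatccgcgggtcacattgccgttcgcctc
ZNF442: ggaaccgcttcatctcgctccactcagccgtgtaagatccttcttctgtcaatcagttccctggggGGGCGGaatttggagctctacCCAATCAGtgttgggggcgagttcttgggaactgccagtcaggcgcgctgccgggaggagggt
ZNF443: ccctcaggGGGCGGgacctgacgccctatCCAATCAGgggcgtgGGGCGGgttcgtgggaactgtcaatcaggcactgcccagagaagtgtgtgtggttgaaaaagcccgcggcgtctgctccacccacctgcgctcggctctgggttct

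ZNF730 (chr19:23116875-23117024, plus strand), ZNF737 (chr19:20565782-20565931, minus) and ZNF43 (chr19:21836183-21836332, minus) stand in the run from ZNF101 to ZNF507 and fell with the KDM4B hairpin. ZNF558 (chr19:8832305-8832454, minus, the first of 2 listed starts) lies in another run and fell with QC6352 in both lines.
ZNF730: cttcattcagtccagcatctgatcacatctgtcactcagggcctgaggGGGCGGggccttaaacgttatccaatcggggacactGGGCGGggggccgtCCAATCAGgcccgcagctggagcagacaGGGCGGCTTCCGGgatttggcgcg
ZNF737: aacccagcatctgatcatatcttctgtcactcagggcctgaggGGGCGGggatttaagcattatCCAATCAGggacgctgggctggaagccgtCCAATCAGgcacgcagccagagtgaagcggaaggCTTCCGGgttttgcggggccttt
ZNF43: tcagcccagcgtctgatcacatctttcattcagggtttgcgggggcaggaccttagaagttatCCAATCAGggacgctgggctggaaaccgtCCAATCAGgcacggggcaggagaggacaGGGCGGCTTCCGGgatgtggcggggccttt
ZNF558: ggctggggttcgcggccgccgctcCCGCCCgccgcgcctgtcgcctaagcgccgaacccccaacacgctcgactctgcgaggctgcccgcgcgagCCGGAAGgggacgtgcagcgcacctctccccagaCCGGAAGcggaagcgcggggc

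Over the whole 300 bases and both strands, CCAATCAG was in 54 of 197 member promoters (27.4%), against 11.9% of 185 promoters of numbered ZNF genes elsewhere and 5.23% of all 14250 promoters of genes tested. The matches were uneven along the chromosome: 21 of 24 promoters in the run from ZNF653 to ZNF791 held it (87.5%), as did 26 of 28 in the run from ZNF101 to ZNF507 (92.9%) and 4 of 5 in the run from ZNF554 to ZNF77. The runs from ZNF565 to ZNF573 (21 promoters) and from ZNF787 to ZNF446 (45) held 0. In the run from ZNF175 to ZNF331, where 22 of 35 members rose with QC6352 in Rh30, 1 of 28 promoters held it (3.57%). CCGGAAG was in 43.7% of member promoters, 37.3% of those of other ZNF genes and 14.3% of all. It was in 18 of 28 promoters (64.3%) of the run from ZNF101 to ZNF507 and in 2 of 24 (8.33%) of the run from ZNF653 to ZNF791, so these runs share the first word but not the second. GGGCGG was in 69.0% of member promoters and 59.5% of all. The 3 words were kept after 17 words had been counted and all words of 8 and 10 letters had been ranked by how much more often members hold them, with fold changes known, so the higher share of CCAATCAG in members follows from how it was chosen. A match is a description of the letters and not of a bound site.

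QC6352 in Rh30 asks what inhibition of KDM4 enzymes did to these genes. More of them rose than fell: 104 of 225 were higher and 11 lower at a limma adjusted p under 0.05, where over all genes 19.9% were higher and 16.5% lower. The median change was 0.35 log2 for members, 0.12 for numbered ZNF genes of other chromosomes (74 higher and 31 lower of 223), 0.10 for other genes of chromosome 19 (220 and 93 of 1031) and 0.05 for all genes. Of the members 186 had a value above 0. The member median of each array was 7.45, 7.39 and 7.41 with QC6352, against 7.087, 7.004 and 7.037 with DMSO, so the groups did not overlap, while the median over all genes differed little. With groups by sample name, 2 members were higher, 0 were lower and the median was 0.13. In the same comparison 8 of 12 rhabdomyosarcoma markers fell and 1 rose; their summed level was 107 to 108.8 with QC6352 and 119.7 to 120 with DMSO. The summed level of the 6 epithelial markers was 37.9 to 39 with QC6352 and 34.9 to 36.1 with DMSO. The part of either in the result was not tested.

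**Figure D1:**
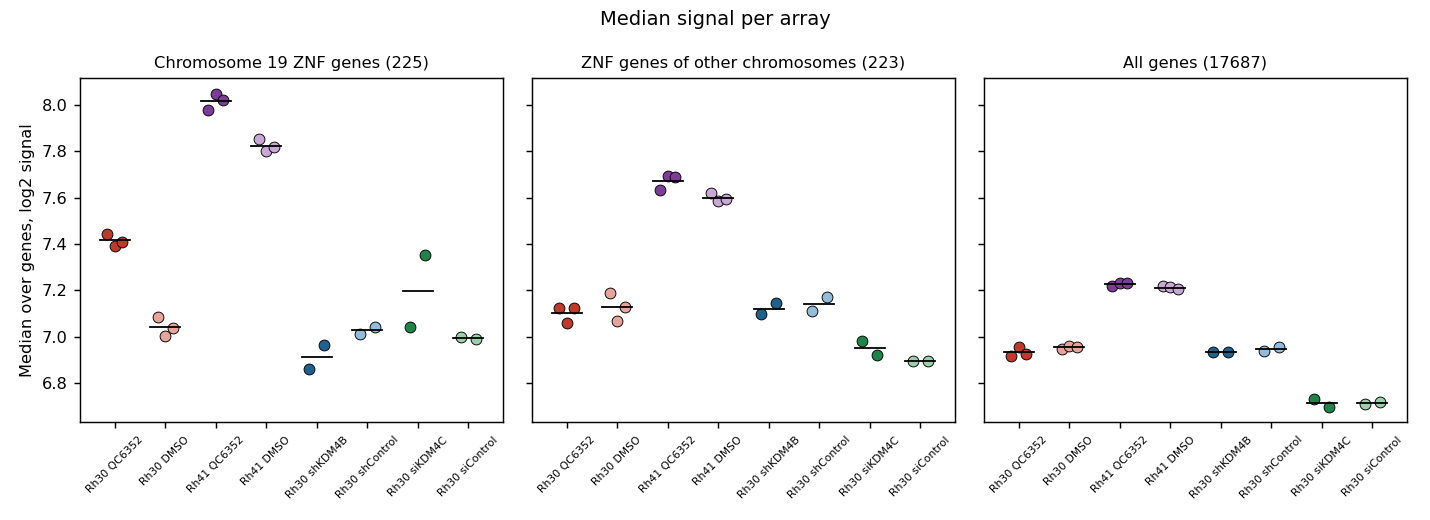
Median log2 signal per array over the 225 members (left), the 223 numbered ZNF genes of other chromosomes (middle) and all 17687 genes (right); a point is 1 array and a line the mean of a group. The members' medians with QC6352 in Rh30 (7.39 to 7.45) lie above those with DMSO (7.004 to 7.087), and the 2 siKDM4C arrays lie apart at 7.04 and 7.35.

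The rise was led by neighbours. ZNF878 had 8.24, 7.69 and 8.05 log2 with QC6352 in Rh30, against 5.45, 5.87 and 5.63 with DMSO. ZNF844, the next member along the chromosome, had 9.90, 9.57 and 9.70 with QC6352, against 7.87, 7.99 and 8.18 with DMSO. In both genes every treated array lay above every control array, by 2.34 ± 0.19 SE for ZNF878 (limma adjusted p = 1.1e-08) and 1.71 ± 0.14 for ZNF844 (1.84e-08). ZNF442 had 7.46, 7.90 and 8.08 with QC6352, against 6.32, 6.82 and 6.36 with DMSO (1.31 ± 0.17, limma adjusted p = 5.7e-06). These 3 belong to the run from ZNF653 to ZNF791, in which 16 of 25 members rose and 1, ZNF564, fell, with a median of 0.52. The other large rises came from elsewhere: ZNF850 (1.40 ± 0.13), ZNF613 (1.26 ± 0.16) and ZNF526 (1.21 ± 0.10), the last with 9.88, 9.80 and 9.93 with QC6352, against 8.65, 8.60 and 8.72 with DMSO. Their limma adjusted p values were 6.47e-08, 3.85e-06 and 1e-08. All 6 kept the call when each of the 6 arrays was left out in turn.

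Rises were spread over the other long runs as well. The run from ZNF175 to ZNF331 had 22 of 35 higher and 2 lower (median 0.43), that from ZNF787 to ZNF446 had 23 of 49 higher and 0 lower (0.37), that from ZNF101 to ZNF507 had 15 of 35 higher and 2 lower (0.31), that from ZNF575 to ZNF180 had 9 of 23 higher and 0 lower (0.29), and that from ZNF565 to ZNF573 had 10 of 22 higher and 1 lower (0.17). The medians of 2 short runs went the other way: -0.16 from ZNF414 to ZNF846 (3 of 11 higher and 2 lower) and -0.21 from ZNF302 to ZNF792 (0 of 5 higher and 1 lower). With groups by sample name 0 to 1 member rose in each of the 6 runs of over 20 members.

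The 11 falls were scattered along the chromosome. ZNF558, a KRAB zinc finger gene of the run from ZNF414 to ZNF846, had 6.15, 6.14 and 6.04 with QC6352 in Rh30, against 7.30, 7.31 and 7.31 with DMSO (-1.20 ± 0.14, limma adjusted p = 1.57e-06). ZNF358 had 8.54, 8.54 and 8.34 with QC6352, against 9.37, 9.36 and 9.45 with DMSO (-0.92 ± 0.09, limma adjusted p = 1.73e-07). ZNF146, which encodes a protein of fingers with no KRAB domain, had 8.81, 8.88 and 8.75 with QC6352, against 9.64, 9.54 and 9.64 with DMSO (-0.80 ± 0.09, limma adjusted p = 5.67e-07). In each of these genes the treated arrays lay below all controls. ZNF83 (-0.71), ZNF880 (-0.64) and ZNF730 (-0.57) also fell, with adjusted p values of 0.000441, 5.32e-05 and 0.00298 in limma. ZNF83 and ZNF880 stand in the run from ZNF175 to ZNF331 and were its only members called lower.

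**Figure D2:**
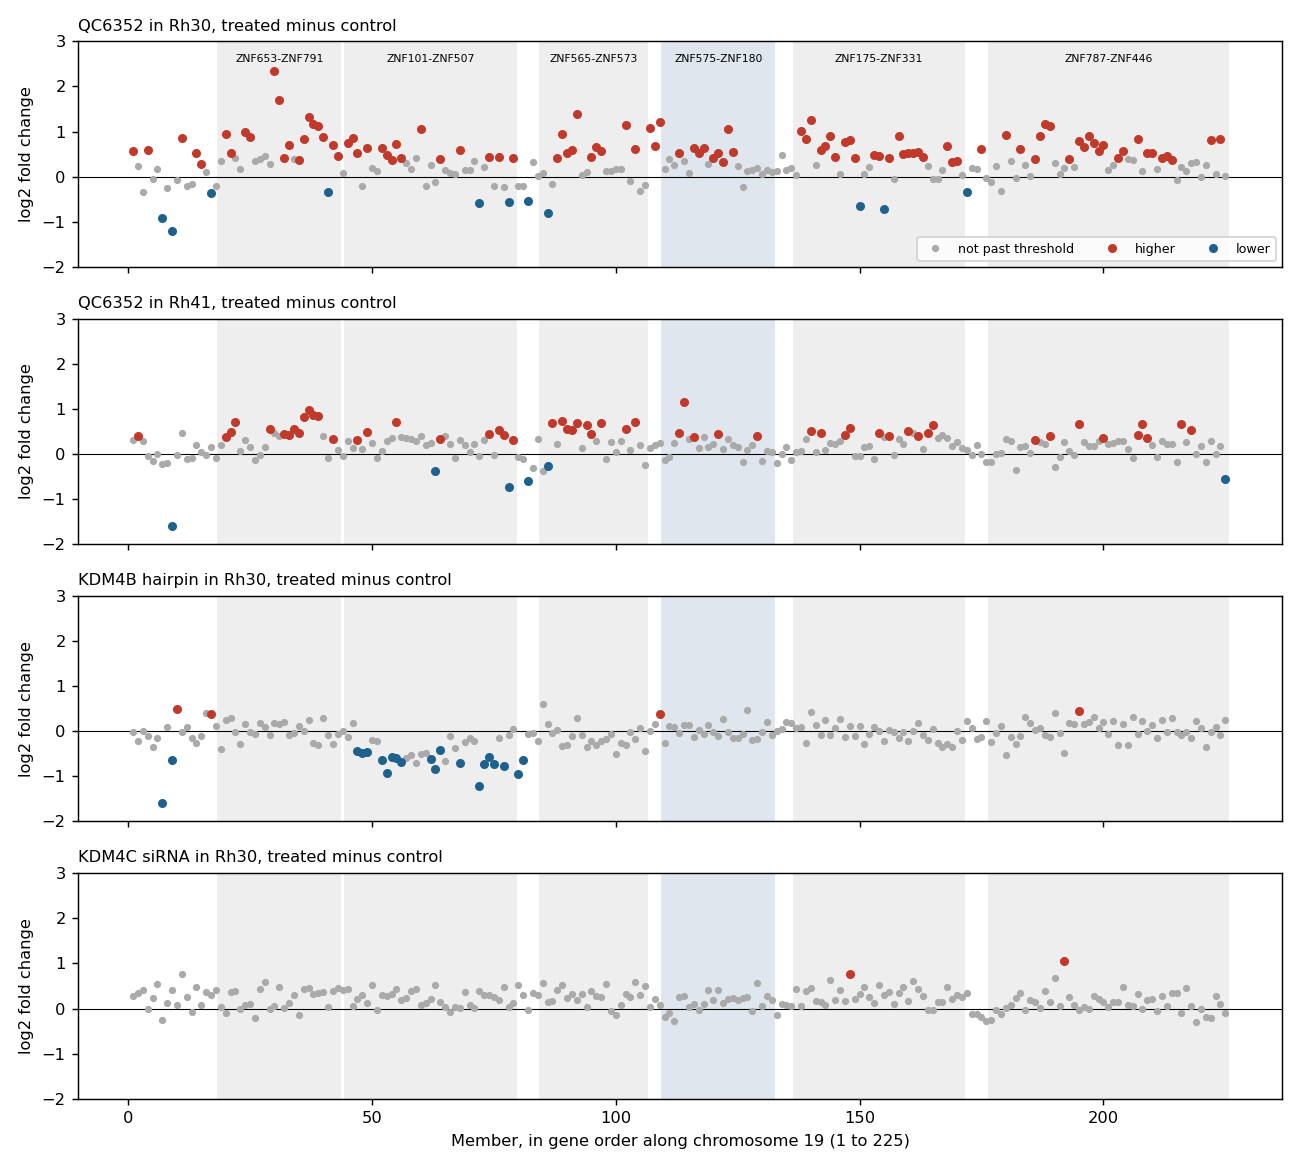
Log2 fold change of each of the 225 members in gene order along chromosome 19 for QC6352 in Rh30, QC6352 in Rh41, the KDM4B hairpin and KDM4C siRNA (top to bottom), treated minus control group mean. Red points are higher and blue points lower at a limma adjusted p under 0.05, grey points did not pass, and shaded bands are the 6 runs of over 20 members; blue points of the hairpin gather in the run from ZNF101 to ZNF507 (17 of 21).

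QC6352 in Rh41, whose labels do not conflict, gave the same question in another line. Here 56 members were higher and 6 lower, against 10.9% and 8.80% of all genes, and the median change was 0.22 for members, 0.05 for other ZNF genes, 0.00 for other genes of chromosome 19 and 0.02 for all genes. The other ZNF genes had 28 of 223 higher and 18 lower. The member median was 7.98, 8.05 and 8.02 with QC6352, against 7.85, 7.80 and 7.82 with DMSO, again without overlap. Of the 12 rhabdomyosarcoma markers 2 rose and 2 fell, with a summed level of 115.1 to 116.1 with QC6352 and 116.1 to 117.2 with DMSO. Of the 6 epithelial markers 1, KRT18, rose, and their summed level was 36 to 36.6 with QC6352 and 35.1 to 35.8 with DMSO. The part of either list in the result was not tested. With groups by sample name the Rh41 arrays and fold changes stayed the same, the pooled spread did not, and 18 members were higher and 1 lower. Without the 10 arrays with conflicting labels, 72 were higher and 8 lower, and in a fit of the 6 Rh41 arrays alone 91 were higher and 8 lower.

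In Rh41 the largest rise was that of ZNF404, with 5.81, 6.06 and 6.25 with QC6352, against 4.91, 4.70 and 5.08 with DMSO (1.14 ± 0.19, limma adjusted p = 0.000236). The next were neighbours in the run from ZNF653 to ZNF791. ZNF442 had 7.38, 7.22 and 7.40 with QC6352, against 6.72, 5.99 and 6.37 with DMSO (0.97 ± 0.17). ZNF799 (0.87 ± 0.17), ZNF443 (0.84 ± 0.18) and ZNF563 (0.82 ± 0.17) followed, with limma adjusted p values of 0.00138, 0.00215 and 0.00155, against 0.000466 for ZNF442. ZNF382, which encodes a KRAB repressor and stands in the run from ZNF565 to ZNF573, had 10.08, 10.14 and 10.03 with QC6352, against 9.38, 9.29 and 9.40 with DMSO (0.73 ± 0.11, limma adjusted p = 6.2e-05). None of these 6 lost the call with any 1 array left out. Over the run from ZNF653 to ZNF791, 13 of 25 members rose and 0 fell, with a median of 0.41. That count was 6 without DMSO replicate 2 and 8 without QC6352 replicate 3 of Rh41, and the median stayed between 0.34 and 0.46 over the 6 arrays left out.

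The largest fall in Rh41 was again ZNF558, with 5.93, 5.92 and 6.23 with QC6352, against 7.80, 7.38 and 7.71 with DMSO (-1.60 ± 0.14, limma adjusted p = 1.84e-07). ZNF536, which encodes a repressor known from neurons, had 5.95, 6.40 and 6.30 with QC6352, against 6.99, 7.04 and 6.83 with DMSO (-0.74 ± 0.19, limma adjusted p = 0.00783). ZNF599 (-0.60 ± 0.15), ZNF446 (-0.56 ± 0.16), ZNF43 (-0.39 ± 0.13) and ZNF146 (-0.27 ± 0.09) had limma adjusted p values of 0.00722, 0.0145, 0.0396 and 0.0323. ZNF558 kept the call with each array left out, while ZNF536 and ZNF599 lost it without QC6352 replicate 1, ZNF446 without DMSO replicate 3 and without QC6352 replicates 1 or 2, and ZNF43 and ZNF146 without any 1 of the 6 arrays.

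The responses of both lines overlapped. Of the members that rose, 42 did so in both lines, which is 40.4% of the 104 in Rh30 and 75% of the 56 in Rh41. Over all genes 1115 rose in both, 31.7% of those in Rh30 and 58% of those in Rh41, and whether the shares of members differ from these was not tested. Members that fell in both were ZNF558, ZNF536, ZNF599 and ZNF146, 36.4% of the 11 in Rh30 and 66.7% of the 6 in Rh41 (33.2% and 62.1% over all genes), and 0 members moved in opposite directions past both thresholds. ZNF536 in Rh30 (-0.57 ± 0.19, limma adjusted p = 0.0206) lost its call without DMSO replicates 2 or 3 or QC6352 replicates 1 or 2, and ZNF599 (-0.54 ± 0.15, 0.00655) kept it. The smaller of the 2 changes was 0.97 for ZNF442, 0.87 for ZNF799, 0.84 for ZNF443, 0.82 for ZNF563, 0.73 for ZNF382 and 0.71 for ZNF85. ZNF85 had 9.21, 9.14 and 9.09 with QC6352 in Rh30, against 8.52, 8.49 and 8.28 with DMSO, and 9.24, 9.35 and 9.45 with QC6352 in Rh41, against 8.69, 8.56 and 8.65 with DMSO. Across the 225 members the fold changes of the lines had a Pearson r of 0.56 and a Spearman rho of 0.55, where over all genes they were 0.53 and 0.43. Genes are not independent replicates, and the fold changes share no arrays.

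**Figure D3:**
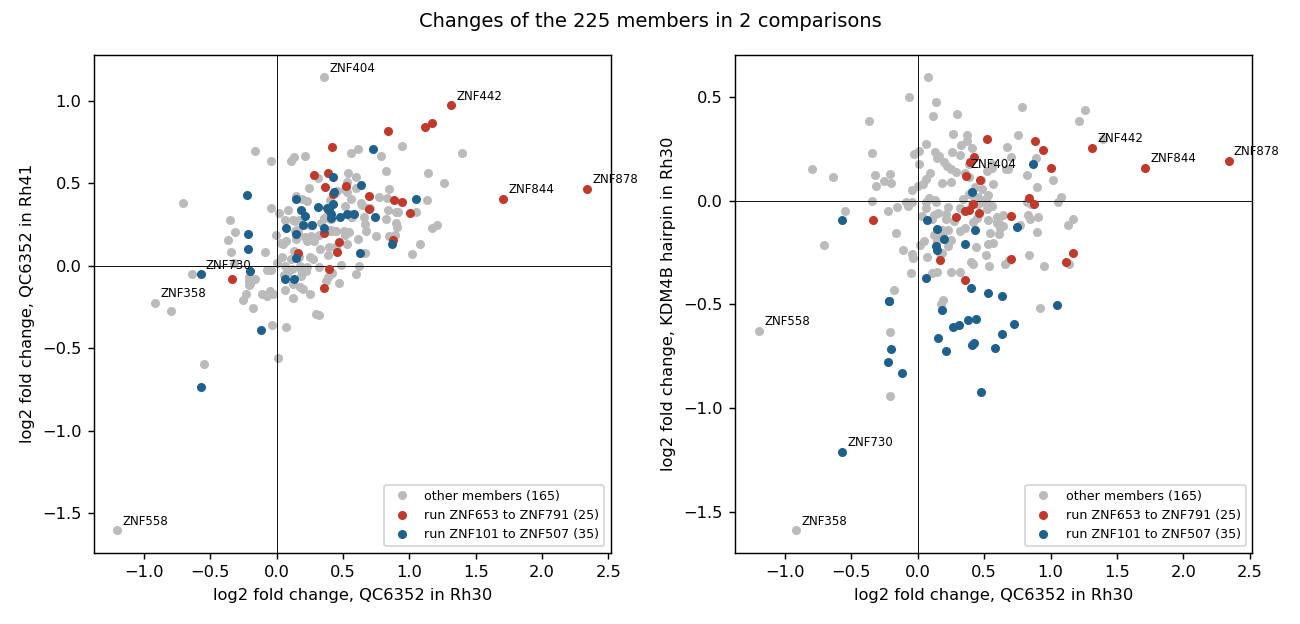
Log2 fold change of the 225 members with QC6352 in Rh30 (x axes) against QC6352 in Rh41 (left) and the KDM4B hairpin (right); red points are the 25 members from ZNF653 to ZNF791, blue points the 35 from ZNF101 to ZNF507 and grey points the other 165. ZNF558 lies low in all 3 comparisons (-1.20, -1.60 and -0.63), and the blue points lie below 0 for the hairpin (median -0.50) but mostly above 0 for QC6352.

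The test of the difference between the lines (Rh41 response minus Rh30 response) called 8 members higher and 25 lower, against 10.5% and 9.45% of all genes. The median difference was -0.13 for members, -0.12 for other ZNF genes, -0.11 for other genes of chromosome 19 and -0.03 for all genes. The count was 7 higher and 14 lower without DMSO replicate 1 of Rh41, and 1 and 4 with groups by sample name, where the median was 0.10. ZNF878 differed most: it had 5.09, 5.30 and 5.22 with QC6352 in Rh41, against 4.65, 4.77 and 4.79 with DMSO, a change of 0.47 ± 0.19 that did not pass (limma adjusted p = 0.0958), beside 2.34 in Rh30 (difference -1.87 ± 0.27, limma adjusted p = 5.58e-05). All ZNF878 values in Rh41 lay below the 95th percentile of the background probe sets (7.42 to 7.87 in these arrays), where a change can be understated. ZNF844 had 8.49, 8.65 and 8.51 with QC6352 in Rh41, against 8.18, 8.15 and 8.11 with DMSO (difference -1.30 ± 0.20, 0.000134 in limma). ZNF526 (-0.96 ± 0.14) and ZNF577 (-0.95 ± 0.15) were the next on that side, with limma adjusted p values of 5.46e-05 and 0.000113.

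On the other side stood ZNF83, which had 8.35, 8.39 and 8.31 with QC6352 in Rh41, against 7.97, 7.97 and 7.95 with DMSO, while it fell in Rh30 (difference 1.09 ± 0.20, limma adjusted p = 0.000562). Its change of 0.38 in Rh41 did not itself pass the threshold (limma adjusted p = 0.0641). ZNF566 had 6.89, 7.11 and 7.23 with QC6352 in Rh41, against 6.46, 6.29 and 6.38 with DMSO, and 4.75, 4.82 and 4.4966 with QC6352 in Rh30, against 4.81, 4.90 and 4.84 with DMSO (difference 0.85 ± 0.18, limma adjusted p = 0.00243). All these ZNF566 values lay below the 95th percentile of the background probe sets (7.42 to 7.90 in these arrays). ZNF404 (0.79 ± 0.27, 0.0445 in limma) lost the call when any of 8 of the 12 arrays was left out, among them every DMSO array of Rh30. ZNF358 (0.69 ± 0.13, 0.000717 in limma) kept its call with each of the 12 left out. ZNF358 had 8.04, 7.98 and 7.89 with QC6352 in Rh41, against 8.23, 8.14 and 8.21 with DMSO, a difference of -0.22 that did not pass (limma adjusted p = 0.101).

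The KDM4B hairpin in Rh30 asks about the loss of 1 of the enzymes. Here 4 members were higher and 21 lower, against 5.26% and 6.31% of all genes, so the share that fell (9.33%) was above the background and the share that rose (1.78%) below it. The median change was -0.06 for members, -0.01 for other ZNF genes (7 higher and 11 lower of 223), 0.06 for other genes of chromosome 19 and 0.03 for all genes. The member medians of the arrays were 6.86 and 6.96 with the hairpin, against 7.01 and 7.04 with its control. Of the 12 rhabdomyosarcoma markers 5 fell and 1 rose, with a summed level of 114 to 114.7 with the hairpin and 118.5 to 119.5 with its control. Of the 6 epithelial markers CLDN4 rose (1.4999 log2, limma adjusted p = 7.89e-06), and their summed level was 36.5 to 37.1 with the hairpin and 34.8 to 34.9 with its control. The part of either list in the result was not tested. Without control replicate 1, hairpin replicate 1 or hairpin replicate 2 in turn, 0 to 1 members were higher and 10 to 13 lower. A fit of these 4 arrays alone called 0 higher and 9 lower, and the wider pooled spread with groups by sample name left 0 higher and 6 lower.

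Of the 21 members that fell, 17 stand in the run from ZNF101 to ZNF507, where 0 of 35 rose and the median was -0.50. In this run 2 of 35 members had a value above 0, and the values ranged from -1.21 to 0.17. ZNF730 had 8.30 and 8.14 with the hairpin, against 9.43 and 9.43 with the control (-1.21 ± 0.17, limma adjusted p = 0.000107). ZNF737 had 7.64 and 7.64 with the hairpin, against 8.51 and 8.61 with the control (-0.92 ± 0.14, limma adjusted p = 0.000148). ZNF43 had 8.87 and 8.81 with the hairpin, against 9.79 and 9.56 with the control (-0.83 ± 0.16, limma adjusted p = 0.00149). In all 3 genes the hairpin arrays lay below both controls. ZNF254 followed at -0.78 ± 0.16 (limma adjusted p = 0.00377; lost without hairpin replicate 2). Among the 17, ZNF91 and ZNF93 were singled out after their values were seen, as genes known to silence SVA and LINE-1 retrotransposons. ZNF91 had 7.23 and 7.40 with the hairpin, against 8.24 and 7.84 with the control (-0.72 ± 0.18, limma adjusted p = 0.0103). ZNF93 had 7.21 and 7.53 with the hairpin, against 7.84 and 7.83 with the control (-0.46 ± 0.14, limma adjusted p = 0.0335).

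The count in that run rested on the small number of arrays: it was 8 without control replicate 1, 7 without hairpin replicate 1, 9 without hairpin replicate 2, 6 in a fit of the 4 arrays alone and 3 with groups by sample name. Under these settings 0 members of the run were called higher, and the median lay between -0.60 and -0.45 with 1 array left out. A fit of the 4 arrays alone and groups by sample name compare the same arrays, so the median stayed at -0.504. Leaving out 1 array uses the remaining ones again. Whether the direction would hold in further cultures cannot be told from these settings. Without the 10 arrays with conflicting labels, 20 of the 35 fell. No other run of over 20 members had a median further from 0 than -0.16, and 0 members of those runs fell.

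Outside that run ZNF358 fell most, with 7.97 and 7.99 with the hairpin, against 9.64 and 9.51 with the control (-1.59 ± 0.11, limma adjusted p = 8.28e-08). ZNF302 had 6.99 and 7.10 with the hairpin, against 8.05 and 7.93 with the control (-0.94 ± 0.16, limma adjusted p = 0.000495). The other 2 falls outside the run were ZNF181, the neighbour of ZNF302, and ZNF558. The 4 that rose did so by less: ZNF317 (0.50 ± 0.13), ZNF772 (0.45 ± 0.12), ZNF562 (0.38 ± 0.11) and ZNF526 (0.38 ± 0.12), with limma adjusted p values of 0.0193, 0.0211, 0.0265 and 0.0427. ZNF317 lost its call without control replicate 1 or hairpin replicate 2, ZNF772 and ZNF526 without control replicate 1 or either hairpin array, and ZNF562 without any 1 of the 4.

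Hairpin and inhibitor moved some members together and others apart. ZNF358, ZNF558 and ZNF730 fell in both, and ZNF526 and ZNF772 rose in both. The 3 that fell were 27.3% of the 11 lower with QC6352 in Rh30 and 14.3% of the 21 lower with the hairpin. Over all genes these shares were 14.7% and 38.4%. The 2 that rose were 1.92% of the 104 higher with QC6352 and 50% of the 4 higher with the hairpin, against 10.8% and 40.9% over all genes. Whether the shares of members differ from those over all genes was not tested. ZNF558 had 6.67 and 6.81 with the hairpin, against 7.23 and 7.50 with the control (-0.63 ± 0.17, limma adjusted p = 0.0233; lost without control replicate 2 or either hairpin array). In contrast 10 members that rose with QC6352 in Rh30 fell with the hairpin, all of them in the run from ZNF101 to ZNF507: ZNF506, ZNF93, ZNF486, ZNF737, ZNF626, ZNF85, ZNF430, ZNF208, ZNF98 and ZNF675. ZNF737 had 9.09, 8.71 and 8.90 with QC6352 in Rh30, against 8.57, 8.39 and 8.31 with DMSO (0.48 ± 0.11, limma adjusted p = 0.00191). ZNF85, which rose with QC6352 in both lines, had 7.91 and 7.87 with the hairpin, against 8.49 and 8.48 with the control (-0.59 ± 0.14, limma adjusted p = 0.0100). ZNF562 went the opposite way round, lower with QC6352 (-0.37) and higher with the hairpin. Opposite calls were not counted over all genes. Exposure lasted 72 h for the hairpin and 48 h for QC6352, and the comparisons use different controls. Across members the Pearson r of the fold changes was 0.22 and Spearman rho 0.11 (0.18 and 0.13 over all genes).

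**Figure D4:**
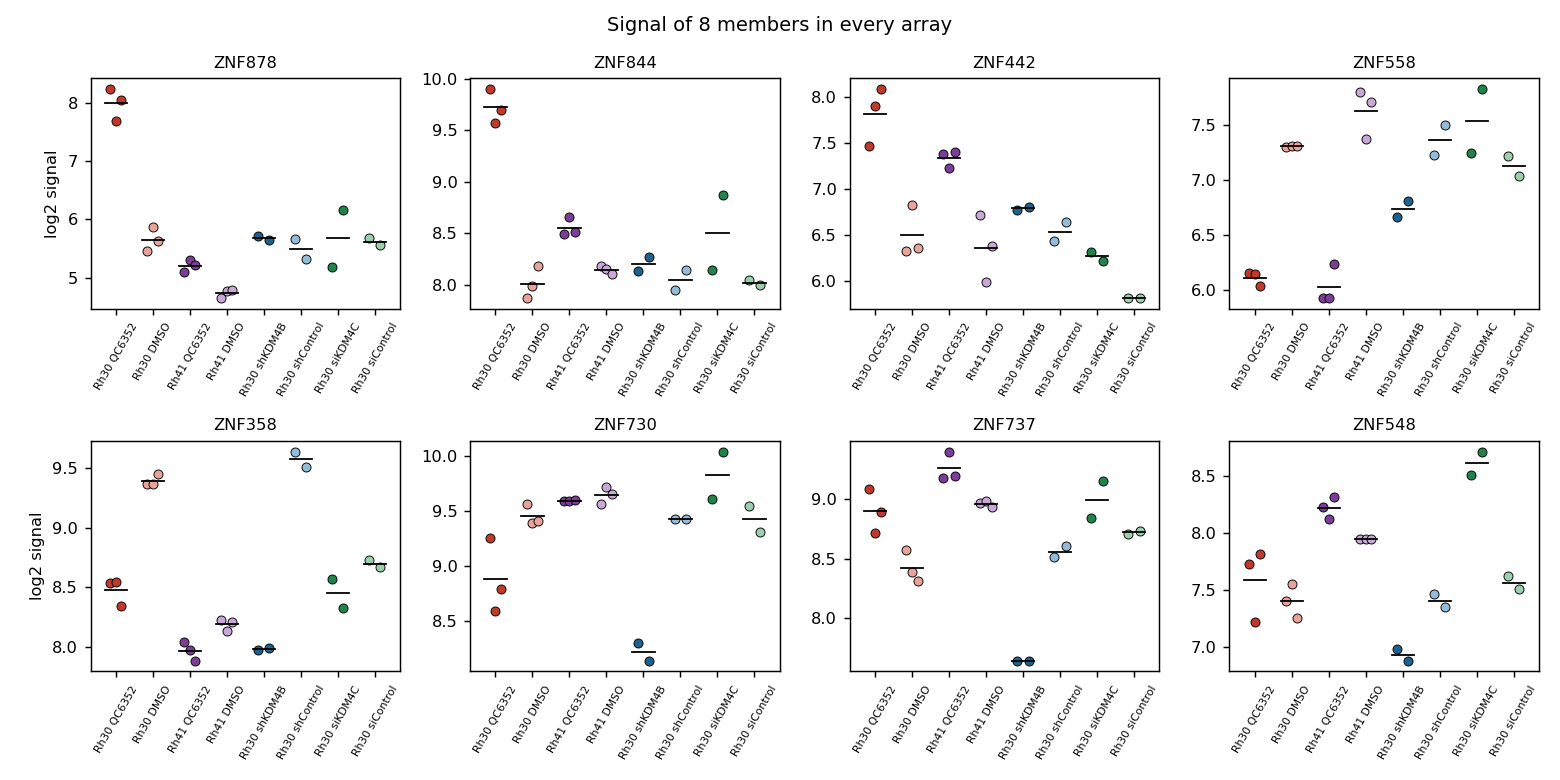
Log2 signal of 8 members in every array, with the mean of each group as a line and each treated group left of its control; axes differ between genes and do not start at 0. ZNF878 and ZNF844 are high with QC6352 in Rh30, ZNF558 is low with QC6352 in both lines, ZNF730 and ZNF737 are low with the KDM4B hairpin, and ZNF548 is high in both siKDM4C arrays.

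In the siKDM4C arrays, 2 members were higher and 0 lower, against 0.266% and 0.192% of all genes, and 65 members (28.9%) had an unadjusted p under 0.05, against 13.8% of all genes. The median change was 0.21 for members, 0.06 for other ZNF genes, -0.07 for other genes of chromosome 19 and 0.02 for all genes. That shift did not belong to both arrays alike: the member median was 7.042 and 7.353 in the siKDM4C arrays, against 6.997 and 6.989 in the control siRNA arrays. Without siKDM4C replicate 2 the median was 0.10 and 0 members passed, and without siKDM4C replicate 1 it was 0.34 and 54 members rose. Without siControl replicate 1 or 2, 1 and 0 passed, and a fit of the 4 arrays alone called 0, as did groups by sample name. ZNF548 had 8.51 and 8.72 in the siKDM4C arrays, against 7.62 and 7.51 in the siControl arrays (1.05 ± 0.16, limma adjusted p = 0.00496), so both arrays stood above the controls, although the call was lost without siControl replicate 2 or siKDM4C replicate 2. ZNF480 had 9.34 and 9.78, against 8.72 and 8.85 (0.77 ± 0.15, limma adjusted p = 0.0247), and lost its call without siControl replicate 1 or 2 or siKDM4C replicate 2. ZNF383, the third by p, had 7.80 and 8.03, against 7.43 and 7.29 (0.55 ± 0.13, limma adjusted p = 0.0594), and did not pass. ZNF480 also rose with QC6352, by 0.82 in Rh30 and 0.57 in Rh41.

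The lines differed before any treatment. With DMSO, 171 members were higher in Rh41 than in Rh30 and 16 lower, against 40.7% and 16.8% of all genes. The median difference was 0.73 for members, 0.40 for other ZNF genes (124 higher and 17 lower of 223), 0.11 for other genes of chromosome 19 and 0.19 for all genes, so members lay 0.54 above the general shift between the lines. With quantile normalization 135 members were higher and 26 lower, and with each array centred on its median 136 and 26. The 3 Rh30 DMSO arrays are among those with conflicting labels, and with groups by sample name 157 were higher and 6 lower, with a median of 0.76. ZNF415 had 8.30, 7.97 and 8.05 in Rh41, against 5.09, 4.36 and 4.65 in Rh30 (3.40 ± 0.16, limma adjusted p = 1.1e-12). ZNF875 had 7.85, 7.82 and 7.95 in Rh41, against 4.66, 4.53 and 4.59 in Rh30 (3.28 ± 0.10, limma adjusted p = 2.88e-15). ZNF347, the neighbour of ZNF415, followed at 2.93 ± 0.17 and ZNF132 at 2.62 ± 0.14. In Rh30 these 4 genes stayed below the 95th percentile of the background probe sets.

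The difference covered whole runs. In the run from ZNF565 to ZNF573 all 22 members were higher in Rh41 and 0 lower, with a median of 1.26 and values from 0.53 to 3.28. In the run from ZNF175 to ZNF331 32 of 35 were higher and 0 lower (median 1.01), in that from ZNF575 to ZNF180 19 of 23 and 0 (1.02), and in that from ZNF787 to ZNF446 44 of 49 and 2 (0.76). The run from ZNF653 to ZNF791 differed less, with 12 of 25 higher and 5 lower (median 0.22), and its median turned to -0.04 with each array centred on its median and to -0.05 with quantile normalization. The run from ZNF101 to ZNF507 had 25 of 35 higher and 1 lower (0.64), and 15 and 0 with groups by sample name (0.35). In the run from ZNF554 to ZNF77 0 of 5 were higher and 3 lower (median -0.45). ZNF556 of that run had 5.42, 5.54 and 5.67 in Rh41, against 7.65, 7.79 and 7.77 in Rh30 (-2.20 ± 0.16, limma adjusted p = 1.49e-09). ZNF671 (-1.71 ± 0.17), ZNF799 (-1.39 ± 0.17) and ZNF358 (-1.20 ± 0.09) were the next lower members, with limma adjusted p values of 7.25e-08, 1.49e-06 and 1.85e-09. With groups by sample name ZNF358 was at -0.46 and lost its call.

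**Figure D5:**
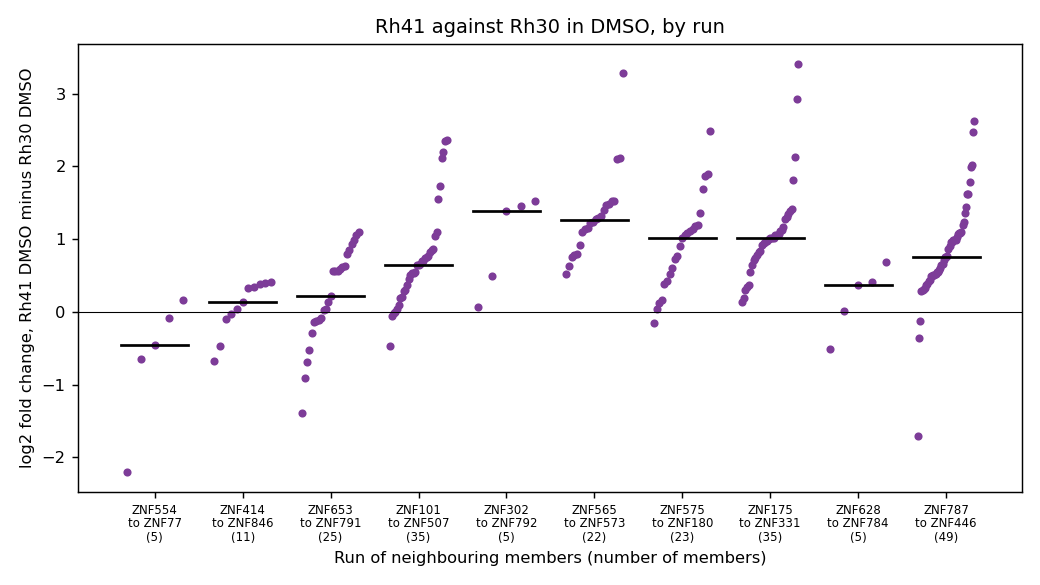
Log2 fold change between Rh41 and Rh30 in DMSO (Rh41 minus Rh30) for the members of the 10 runs of at least 5, in chromosome order; a point is 1 member, sorted by value within its run, and a line the median of the run. All 22 points of the run from ZNF565 to ZNF573 lie above 0, whereas the run from ZNF554 to ZNF77 has its median at -0.45.

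ZNF274, whose protein brings SETDB1 to the 3′ ends of zinc finger genes, had 6.94, 7.10 and 6.74 with QC6352 in Rh41, against 6.18, 6.66 and 6.35 with DMSO (0.53 ± 0.13, limma adjusted p = 0.00556). In Rh30 it had 6.02, 6.01 and 5.86 with QC6352, against 5.47, 5.84 and 5.63 with DMSO, a difference of 0.31 that did not pass (limma adjusted p = 0.0636). Its changes with the hairpin (-0.15) and in the siKDM4C arrays (0.05) were within the spread between arrays. By mean over the 20 arrays ZNF134 and ZNF146 gave the highest and ZNF99 and ZNF285 the lowest signals of the members. ZNF99 and ZNF285 lay at 3.26 to 4.37 log2 in all arrays, and the background probe sets had array medians of 3.64 to 4.01.

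The genes that work with KRAB zinc finger proteins did not move as 1 group. Of 27 measured silencing partners 4 rose and 7 fell with QC6352 in Rh30, 2 rose and 3 fell with QC6352 in Rh41, 0 rose and 3 fell with the hairpin, and 0 passed in the siKDM4C arrays. Their medians were -0.07, 0.03, -0.13 and 0.00. Over all genes 19.9% rose and 16.5% fell with QC6352 in Rh30, 10.9% and 8.80% in Rh41, and 5.26% and 6.31% with the hairpin. Whether the partners differ from these shares was not tested. TRIM28, the corepressor that KRAB domains bind, had 10.19, 10.33 and 10.32 with QC6352 in Rh41, against 10.84, 10.90 and 10.80 with DMSO (-0.57 ± 0.12, limma adjusted p = 0.00276), and did not pass in Rh30 (-0.17). SETDB1, the H3K9 methyltransferase of this pathway, fell with QC6352 in Rh30 (-0.41 ± 0.10, limma adjusted p = 0.00277) and not past the threshold in Rh41 (0.06), and the difference between lines was 0.47 ± 0.14 (0.0247 in limma). TASOR, a subunit of the HUSH silencing complex, fell with QC6352 in Rh30 (-1.003 ± 0.16) and with the hairpin (-1.18 ± 0.19), while MPHOSPH8 and PPHLN1, the other HUSH subunits, rose with QC6352 in Rh30 (0.58 and 0.37). MORC2, a partner of HUSH, fell with QC6352 in Rh30 (-0.88 ± 0.12) and in Rh41 (-0.40 ± 0.12). With the hairpin ATRX (-1.64 ± 0.22) and CHD4 (-0.86 ± 0.16) fell as well. The limma adjusted p values of these calls ran from 5.09e-06 to 0.0177.

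Among the demethylases themselves, KDM4A rose with QC6352 in Rh30 (0.49 ± 0.10) and in Rh41 (0.51 ± 0.10), with limma adjusted p values of 0.000865 and 0.00156. KDM4D fell with QC6352 in Rh30 (-0.80 ± 0.23) and Rh41 (-0.95 ± 0.23) and rose with the hairpin (0.94 ± 0.28). Its limma adjusted p values were 0.00923, 0.00542 and 0.0343. KDM4D lay at 3.36 to 6.34 log2 in all arrays, below the 95th percentile of the background probe sets (6.94 to 7.94). KDM4B and KDM4C did not pass with QC6352 in either line. Of the 6 other H3K9 demethylases, JMJD1C fell with QC6352 in Rh30 (-0.96 ± 0.10) and Rh41 (-0.37 ± 0.10), PHF2 fell in Rh30 (-0.63 ± 0.08), KDM7A rose in Rh41 (0.66 ± 0.11) and PHF8 fell with the hairpin (-0.90 ± 0.16). Of 14 measured chromosome 19 zinc finger genes with other kinds of names, 5 rose and 1 fell with QC6352 in Rh30 (median 0.11), 1 rose in Rh41 (0.16), 1 rose with the hairpin (0.04) and 0 passed in the siKDM4C arrays (0.02). The shares over all genes are those given above for each comparison.

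The 3 promoter words were chosen with fold changes known. Over all genes 19.9% were higher and 16.5% lower with QC6352 in Rh30. The shares were 10.9% and 8.80% with QC6352 in Rh41, and 5.26% and 6.31% with the hairpin. Split by promoter word, the 54 members with CCAATCAG had 30 higher and 2 lower with QC6352 in Rh30 (median 0.42), beside 60 and 9 of the 143 without it (0.26). In Rh41 19 were higher and 1 lower of those with it (0.34), beside 32 and 5 of those without (0.19). With the hairpin 1 was higher and 14 lower of those with it (-0.21), beside 3 and 4 of those without (-0.01). Since 21 and 26 of these 54 promoters belong to the runs from ZNF653 to ZNF791 and from ZNF101 to ZNF507, the word and the position of the members cannot be told apart, and in those runs the hairpin medians were -0.02 and -0.50. For CCGGAAG the medians with QC6352 in Rh30 were 0.36 with the word and 0.31 without it, and for GGGCGG they were 0.36 and 0.31. With the hairpin 0 were higher and 15 lower of the 86 members with CCGGAAG (-0.09), beside 4 and 3 of the 111 without it (-0.02). For GGGCGG 4 were higher and 16 lower of the 136 with it (-0.06), beside 0 and 2 of the 61 without it (-0.03). The run from ZNF101 to ZNF507, which holds 17 of the 21 members that fell, has 18 of the 86 promoters with CCGGAAG and 21 of the 136 with GGGCGG, and its part in these counts was not tested. CCGGAAG was as frequent in the runs from ZNF175 to ZNF331 (18 of 28 promoters) and from ZNF787 to ZNF446 (28 of 45). In both of those runs 0 members fell with the hairpin.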

How the data were processed

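Total RNA of 20 cultures (125 ng per array) was hybridised with the Whole Transcript Plus assay, per the labels' protocols. The authors deposited log2 signals per probe set (2.22 to 14.22), made with GCOS per the submitters' processing notes; neither its version nor the normalization is stated. Of 24351 probe sets 17709 had 1 gene symbol and 6642 none, and the probe set with the highest mean stood for a gene. Arrays carry no read depth, and their number (2 or 3 per group) limits the precision. The labels call the arrays biological replicates.

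All 20 arrays entered 1 limma fit (limma 3.58.1, R 4.3.3) of 8 group means, with 12 residual degrees of freedom, Benjamini-Hochberg adjustment over all 17687 genes and a threshold of 0.05. Error values after ± are standard errors of that fit. The script was tested on simulated data. Members above background exceeded the 95th percentile of 23 background probe sets of an array. Named members were the largest changes in each direction among called members whose groups did not overlap (6 each way per treatment, 4 for differences between lines), and those called alike in both lines. The members, lists and rules were chosen with earlier results of these data known. Gene order came from a RefSeq table, whose coordinates were not used since no source names the array's build; the promoters are from RefSeq GRCh38.p14. Where a gene had several listed starts the first was used (32 members). Protein sequences were not used here.

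Same-numbered arrays were checked for pairing by the correlation of their deviations from the group means, which was 0.26, 0.06 and 0.08 in Rh30 with QC6352 and DMSO, -0.19, -0.06 and -0.08 in Rh41, 0.09 for the hairpin and -0.21 for siRNA, so the numbers were not shown to pair arrays. Alternatives were quantile normalization, centring, a filter on low genes, trend and robust moderation, the mean of probe sets, a replicate block, groups by sample name, the compared arrays alone and leaving out each array.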

Additional observations from a re-analysis of the deposited data

Results flagged for a closer look

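The response to QC6352 differed between the lines, by the test of the difference itself (limma, Rh41 response minus Rh30 response), for 14 of the 43 members picked by the naming rules. ZNF878, ZNF844, ZNF526, ZNF577, ZNF83, ZNF566, ZNF404 and ZNF358 were picked for the size of this same difference, so the count follows from the picking. Of all 225 members 8 were higher and 25 lower, against 10.5% and 9.45% of all genes. Lower in Rh41 were ZNF878 by -1.87 log2, ZNF844 by -1.30, ZNF526 by -0.96, ZNF577 by -0.95, ZNF613 by -0.76 and ZNF850 by -0.71. Higher in Rh41 were ZNF83 by 1.09, ZNF566 by 0.85, ZNF404 by 0.79, ZNF358 by 0.69, ZNF254 by 0.66, ZNF880 by 0.59, ZNF562 by 0.52 and ZNF146 by 0.52. ZNF404 lost the call when any of 8 of the 12 arrays was left out. ZNF577 had 8.85, 8.97 and 9.01 with QC6352 in Rh30, against 7.81, 7.91 and 8.05 with DMSO, and 8.64, 8.90 and 8.78 with QC6352 in Rh41, against 8.72, 8.75 and 8.65 with DMSO. All of these rest on Rh30 arrays whose titles and sample names conflict.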

How the results depend on the processing

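Grouping by sample name in place of title called 2 members for QC6352 in Rh30 (115 by title; median 0.132), 19 for QC6352 in Rh41, 6 for the hairpin, 0 for siRNA and 5 for the difference between lines, whose median reversed to 0.099, while 163 were called for the lines in DMSO (187 by title). The named changes that reversed were ZNF558 (0.31), ZNF358 (0.36), ZNF83 (0.12), ZNF880 (0.29), ZNF730 (0.18), ZNF536 (0.73), ZNF599 (0.34) and ZNF772 (-0.34) for QC6352 in Rh30, ZNF383 (-0.03) for siRNA, and ZNF358 (-0.59), ZNF878 (0.11), ZNF844 (0.22) and ZNF526 (0.15) for the difference between lines. The compared arrays alone called 99 members for QC6352 in Rh41, 9 for the hairpin and 0 for siRNA. For siRNA the filter on low genes called 9 members, trend and robust moderation 10, the replicate block 1, and crossed numbers as a block 1. The median difference between lines in DMSO (0.733) was 0.454 with quantile normalization, 0.477 centred, 0.683 filtered and 0.698 with the replicate block, and the median difference in response was -0.164 centred. The replicate block changed no other count of members by over 1.5 times, and the numbers are not known to pair arrays. With 1 array left out the members called were 105 to 115 for QC6352 in Rh30 (median 0.326 to 0.363), 42 to 46 for QC6352 in Rh41 (0.202 to 0.234), 11 to 23 for the hairpin (-0.097 to -0.026), 0 to 54 for siRNA (0.095 to 0.339), 21 to 32 for the difference in response (-0.150 to -0.107) and 175 to 181 for the lines in DMSO (0.693 to 0.756). As background limit the maximum left 37 members and the median, chosen after seeing the data, 213. Also chosen after seeing the data, leaving the 10 arrays with conflicting labels out of the fit called 80 members for QC6352 in Rh41 and 32 for the hairpin. Among named members the processing alternatives other than groups by sample name left 477 calls on the same side, 17 weaker, 2 stronger and 0 reversed. Among these alternatives the mean of probe sets leaves every member's values unchanged, since each has 1 probe set. Groups by sample name left 17 on the same side, 31 weaker, 0 stronger and 13 reversed. With 1 array left out, 340 stayed on the same side, 47 were weaker, 1 was stronger and 0 reversed. The cause was not tested. The planned description of protein features was not run. Low signal limits what small changes can be seen, and 2 arrays per group limit the knockdown comparisons.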
